A study of Mus musculus with 4 samples.

Results

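The 9 genes described here encode enzymes that build and break down glycogen. They are Pygl, Pygb, Pygm, Phka1, Phkb, Ugp2, Gyg, Gys1 and Gbe1, and they were taken by platform gene symbol, which gave 15 of the 45018 array features and 9 of the 19087 genes with a singly named feature. RNA of Mll1-/- mouse embryonic fibroblasts was compared with RNA of wild-type (Mll1+/+) fibroblasts on 4 two-colour whole-genome arrays, each of which held both genotypes. Such fibroblasts are connective-tissue cells taken from embryos, and both genotypes are described as cell lines kept in DMEM with bovine serum. Mll1 (current symbol Kmt2a) codes for an enzyme that methylates lysine 4 of histone H3. Dyes were swapped, with the knockout in Cy5 on arrays 1 and 3 and in Cy3 on the other 2. The labels give no mouse strain, sex, passage or deleted part of the gene, so genotype and cell line cannot be told apart. They do not say whether the arrays came from separate cultures, so the spread between arrays may be technical. The genes were chosen with their ratios in these arrays known, so their ratios are given as a description. No limma call on their genotype ratio is read as a test.

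Each value is a log2 ratio, likely of Mll1-/- over wild type. The direction is not stated in the sources used here and rests on the sample titles, which name the mutant first, and on Kmt2a itself, which had log2 ratios of −1.61, −1.58, −1.01 and −0.78 on arrays 1 to 4. If the ratios run the other way, each "higher" and "lower" changes places. Between 16.9% and 29.8% of features were blank on an array, and the array medians lay between −0.02 and 0.03. Across the 14222 genes with a value on every array, 4140 were higher and 4275 lower in Mll1-/- cells (limma, Benjamini-Hochberg adjusted p under 0.05), which is 29.1% and 30.1% of them and 59.2% together. Higher genes numbered 2665 when array 1 was left out and 2532 when array 2 was. No channel intensities were used here, so neither the level of a transcript in either genotype nor its height over background is known, and precision is limited by how few arrays there are. The fibroblast label could therefore not be checked by level. Of 10 fibroblast markers 9 were tested, of which 4 were higher, 4 lower and 1 not past the threshold, with log2 ratios from −2.21 to 2.27.

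Glycogen is a branched polymer of glucose that most cells keep as a short-term store. To build it, UDP-glucose pyrophosphorylase makes the activated sugar, glycogenin starts a chain on itself, glycogen synthase lengthens the chain and the branching enzyme adds side branches. To break it down, glycogen phosphorylase cuts glucose 1-phosphate from the chain ends, and phosphorylase kinase switches the phosphorylase on by phosphorylating it. Mammals have liver, brain and muscle forms of the phosphorylase, encoded by separate genes.

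Of the 3 phosphorylase genes, Pygl stood far apart from Pygb and Pygm, whose values overlapped. Pygl, the liver form, had log2 ratios of 8.27, 7.31, 8.46 and 7.88 on arrays 1 to 4, a mean of 7.98 ± 0.51 (SD, n = 4) or 252-fold. It was far higher in Mll1-/- cells on every array, and its lowest array lay above the highest value of the other 8 glycogen genes. The brain form, Pygb, was measured by a pair of features. Feature 27201 stood at −0.29, 0.69, −0.31 and 0.47 and feature 35311 at −0.09, 0.20, −0.08 and 0.20. Averaged over both features Pygb had a mean of 0.10 ± 0.34 (SD, n = 4), a difference smaller than the spread between arrays. That spread includes the difference between dye orientations. The muscle form, Pygm, had a value on 3 arrays, at −0.61 on array 1, 1.12 on array 2 and 0.12 on array 4, and was blank on array 3. Its signs were mixed, and it was left out of all counts over tested genes. Probe sequences were not used here, so the extent to which a feature for one form also binds the RNA of another was not tested.

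**Figure D1:**
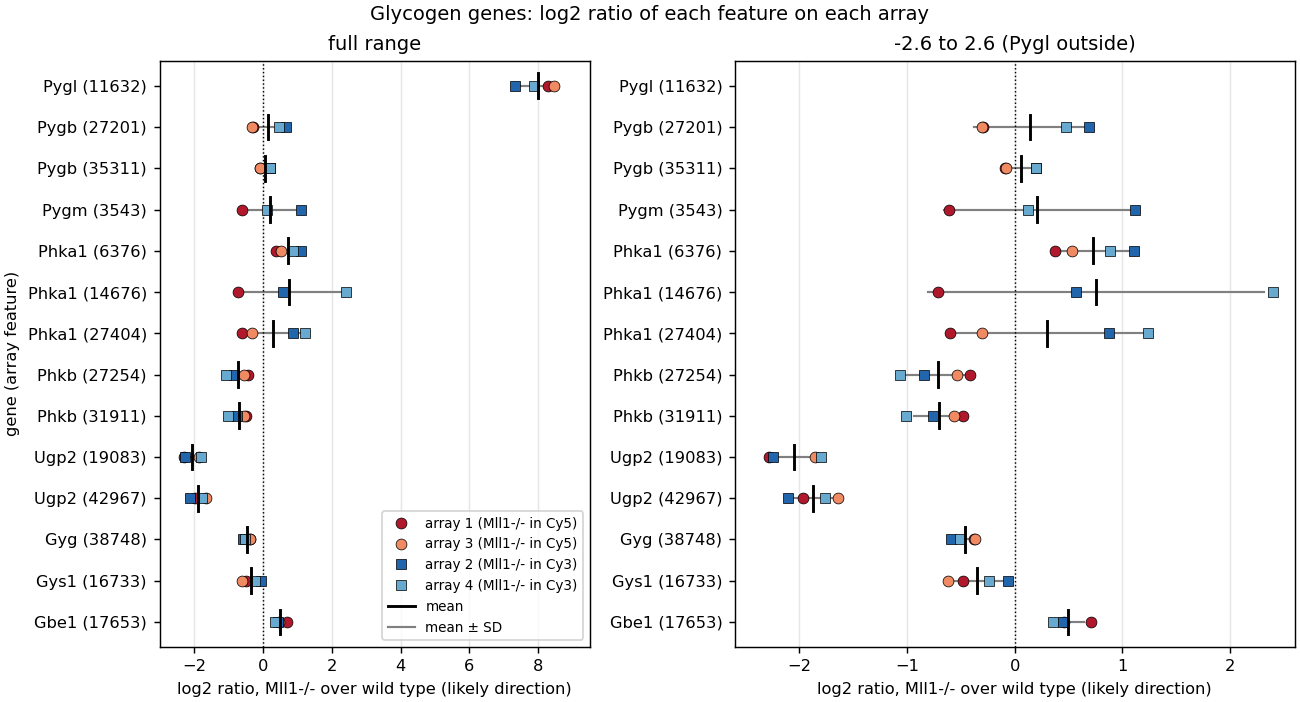
Log2 ratio of each feature (x axis, likely Mll1-/- over wild type) for the glycogen genes (rows, with the feature number), over the full range on the left and from −2.6 to 2.6 on the right. Circles are arrays 1 and 3 with the knockout in Cy5, squares are arrays 2 and 4 with the knockout in Cy3, black bars are means and grey lines ± SD. Pygl lies between 7.31 and 8.46, Ugp2 lies below −1.6 on every array, and the circles and squares of Pygb fall on opposite sides of 0.

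The promoters of the 3 phosphorylase genes are shown because the genes code for the same reaction while the ratio of Pygl stands apart. A further reason is that MLL1 is known to bind unmethylated CG dinucleotides through its CXXC domain. The 250 bases before the start of transcription are from RefSeq (GRCm38.p6), written 5′ to 3′ on the gene's strand, with CG in capitals. They lie at chr12:70227684-70227933 on the minus strand for Pygl, at chr2:150786546-150786795 on the plus strand for Pygb and at chr19:6384158-6384407 on the plus strand for Pygm.
Pygl: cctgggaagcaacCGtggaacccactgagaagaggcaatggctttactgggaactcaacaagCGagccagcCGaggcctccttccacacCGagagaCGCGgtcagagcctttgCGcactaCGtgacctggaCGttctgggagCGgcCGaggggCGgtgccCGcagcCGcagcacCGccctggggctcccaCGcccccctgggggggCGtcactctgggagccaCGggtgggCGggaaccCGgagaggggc
Pygb: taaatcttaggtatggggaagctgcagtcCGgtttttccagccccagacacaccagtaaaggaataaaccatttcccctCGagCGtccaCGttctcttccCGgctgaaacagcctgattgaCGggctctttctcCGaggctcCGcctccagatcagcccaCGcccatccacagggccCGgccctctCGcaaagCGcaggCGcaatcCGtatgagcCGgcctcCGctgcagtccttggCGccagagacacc
Pygm: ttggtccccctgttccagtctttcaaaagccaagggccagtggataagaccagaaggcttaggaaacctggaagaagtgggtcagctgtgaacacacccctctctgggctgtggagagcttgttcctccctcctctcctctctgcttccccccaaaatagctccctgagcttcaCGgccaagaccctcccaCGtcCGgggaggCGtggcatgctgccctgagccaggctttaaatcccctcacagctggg
The printed bases hold 20 CG in Pygl, 17 in Pygb and 4 in Pygm. In the table's whole windows of 300 bases, from 250 before to 50 after the start, the counts were 22, 21 and 4, against a median of 7 over 32851 promoter windows. Fewer CG than in these windows were held by 76.9% of promoter windows for Pygl, 75.2% for Pygb and 31.4% for Pygm. Whether the CG count has a part in the ratios was not tested.

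Phosphorylase kinase is a complex of a catalytic gamma subunit with alpha, beta and calmodulin subunits that control it. Phkb, the beta subunit, had log2 ratios of −0.42, −0.84, −0.54 and −1.06 on feature 27254 and −0.48, −0.76, −0.56 and −1.01 on feature 31911. Both features were below 0 on all 4 arrays, with a mean of −0.71 ± 0.26 (SD, n = 4) for the gene, 1.63-fold lower in Mll1-/- cells. The remaining Phkb feature, 15808, was blank on every array. Phka1, the alpha subunit of muscle, lay on the X chromosome and was measured by 3 features that differed among themselves. Feature 6376 was above 0 on every array, at 0.38, 1.11, 0.53 and 0.89. Feature 27404 stood at −0.60, 0.88, −0.31 and 1.24, and feature 14676 at −0.71 on array 1, 0.57 on array 2 and 2.40 on array 4, with a blank on array 3. Averaged over its complete features, Phka1 had a mean of 0.52 ± 0.60 (SD, n = 4), so the difference was smaller than the spread between arrays. Here too the spread includes the difference between dye orientations.

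Of the genes that act in synthesis, Ugp2, which makes UDP-glucose, was the lowest. Feature 19083 had log2 ratios of −2.28, −2.25, −1.86 and −1.80, and feature 42967 had −1.97, −2.11, −1.64 and −1.77. All 8 values were below −1.6, and the gene averaged −1.96 ± 0.22 (SD, n = 4), 3.89-fold lower in Mll1-/- cells. Gyg, the self-glucosylating primer glycogenin, stood at −0.38, −0.59, −0.37 and −0.51, a mean of −0.46 ± 0.11 that was 1.38-fold lower with little spread. Gys1, the glycogen synthase of muscle and most other tissues, was at −0.49, −0.06, −0.62 and −0.24. It was below 0 on every array but nearly at 0 on array 2, with a mean of −0.35 ± 0.25. Gbe1, the branching enzyme, was the exception in this group, at 0.71, 0.44, 0.46 and 0.36, a mean of 0.49 ± 0.15 that was 1.41-fold higher in Mll1-/- cells.

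The promoter of Ugp2, the most lowered of these genes, is shown for comparison with those of the phosphorylases. It lies at chr11:21371268-21371517 on the minus strand (RefSeq, GRCm38.p6), with CG in capitals.
Ugp2: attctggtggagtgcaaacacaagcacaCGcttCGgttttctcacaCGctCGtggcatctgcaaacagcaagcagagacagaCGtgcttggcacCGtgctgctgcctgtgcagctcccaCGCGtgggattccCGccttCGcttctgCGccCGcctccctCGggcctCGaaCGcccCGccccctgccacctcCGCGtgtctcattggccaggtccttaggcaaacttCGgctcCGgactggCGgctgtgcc
These bases hold 21 CG, and the 300-base window of this start holds 23. RefSeq gives Ugp2 a second start, whose 300-base window holds 32 CG. Across the 10 windows of the 9 genes the count ran from 4 in Pygm to 38 in Phkb. The letters ACGTG, the core of the hypoxia response element, were searched on both strands, counting also those within the E-box CACGTG. They occurred in 5 of the 10 windows (in Pygl, Pygb, Pygm, Gyg and 1 of the 2 Ugp2 windows), against 19.6% of all promoter windows. The letters GGGCGG, a GC box, were searched on both strands too and occurred in 8 of the 10, against 35.7% of all windows. These are letter matches and not bound sites. Both strings contain CG, and every window but that of Pygm holds more CG than the median of 7 over all promoter windows. The shares were not matched for CG content, and Ugp2 counts for 2 of the 10 windows, so no enrichment is read from them.

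With all their values side by side, the genes did not share a direction. Of the 9 genes 8 had a value on every array, and 4 of these had a mean above 0 and 4 a mean below 0. Their median log2 ratio was −0.13, against a median of 0.00 (−0.0007) over all genes tested, and their median absolute log2 ratio was 0.50, against 0.34. Pygl and Ugp2 were the 2 genes that differed by at least 2-fold, a size reached by 15.1% of all genes. Pygl had the second highest mean of the 14222 genes (rank 2 from the top) and Ugp2 was at rank 457 from the bottom. Pygb sat near the middle, at the 58.6th percentile. Pygl, Gbe1, Phkb, Ugp2, Gyg and Gys1 kept one sign on all arrays, which is 6 of 8, against 66.5% of all genes. By limma 3 of the 8 were past the threshold as higher (Pygl, Phka1 and Gbe1) and 4 as lower (Phkb, Ugp2, Gyg and Gys1), beside 29.1% and 30.1% of all genes. Nothing is read from that count or from the call of any gene in it, since the genes were chosen with this contrast known. Phka1 left the count without the dye term or when a feature needed a value on only 3 arrays. Gys1 left the count without array 1, 3 or 4 and with arrays 1 and 2, and 3 and 4, averaged.

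**Figure D2:**
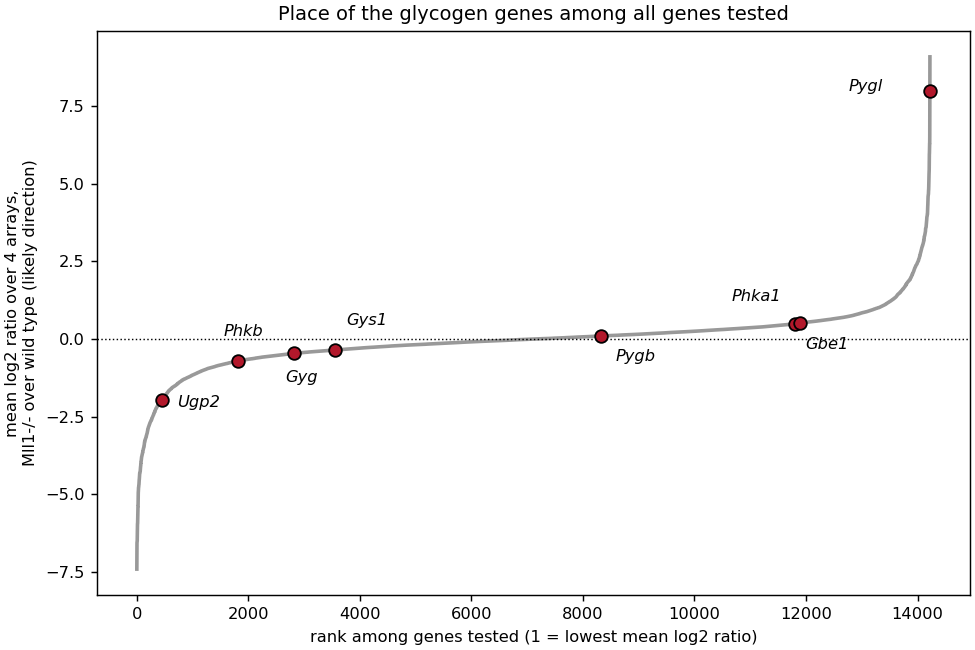
Mean log2 ratio over the 4 arrays (y axis, likely Mll1-/- over wild type) against rank (x axis) for the 14222 genes tested, as a grey line, with the 8 glycogen genes that had a value on every array as red points. Pygl lies at the upper end of the line, Ugp2 in its lower bend, and the other 6 along its flat middle.

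The dye orientation was compared apart from the genotype, since the genes were not chosen on it. Pygb had a mean of −0.19 with the knockout in Cy5 and 0.39 with the knockout in Cy3, so its sign went with the dye on both features. Phka1 had 0.00 (0.0016) with the knockout in Cy5 and 1.03 with the knockout in Cy3, and its difference of −1.03 was the widest among these genes. Pygl stood at 8.36 and 7.59, a difference of 0.77 that was a small part of its ratio, and Phkb at −0.50 and −0.92. Ugp2 differed least, at −1.94 and −1.98. The median absolute difference between orientations was 0.41 over the 8 genes, against 0.17 over all genes. The limma dye term of none of the 8 passed the threshold, with adjusted p-values from 0.298 to 0.949, and 0.0% of all genes passed. At an unadjusted p under 0.05 there were 5 of 8 (Pygl, Pygb, Phka1, Phkb and Gys1), beside 14.8% of all genes. Of the tested genes only Pygb had means of opposite sign in the 2 orientations, which 18.0% of all genes had.

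**Figure D3:**
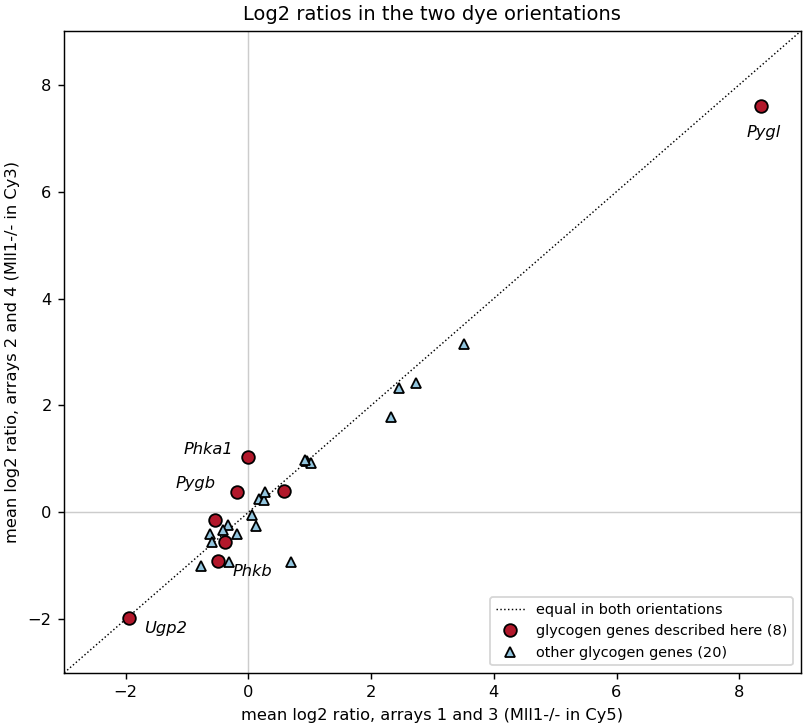
Mean log2 ratio of arrays 1 and 3, with the knockout in Cy5 (x axis), against that of arrays 2 and 4, with the knockout in Cy3 (y axis), for the 8 glycogen genes tested (red circles) and 20 other genes of glycogen metabolism (blue triangles). The dotted line marks equal values. Ugp2 lies near the line toward its lower end, Pygl lies below the line toward its upper end, and Phka1 and Pygb lie above it near 0.

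Features for the same gene were compared as a check within an array. The features of Phkb with values differed by 0.01 in their means and by at most 0.08 on any array. Those of Pygb differed by 0.08 in their means but by 0.21 to 0.49 on single arrays, with feature 27201 farther from 0 than feature 35311 each time. The Ugp2 features differed by 0.18, with feature 19083 the lower on all 4 arrays, and the complete Phka1 features by 0.42. Over 3961 genes with a pair of complete features the median difference was 0.20, so Phka1 lay above it and Phkb, Pygb and Ugp2 below. Pygl, Pygm, Gyg, Gys1 and Gbe1 rest on a single feature each.

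Other genes of glycogen metabolism moved in both directions. Of 24 listed genes with a feature, outside the 9 above, 20 were tested, of which 9 rose and 7 fell (limma, adjusted p under 0.05), with a median log2 ratio of 0.11, beside 29.1% higher and 30.1% lower over all genes. Of the 20 tested, 4 changed at least 2-fold, a size reached by 15.1% of all genes, and these 4 rose. Ppp1r3b, which brings protein phosphatase 1 to glycogen in the liver, had log2 ratios of 2.85, 3.53, 4.17 and 2.78, a mean of 3.33 ± 0.65 or 10.08-fold (limma, adjusted p = 0.00398). Nhlrc1, the ubiquitin ligase malin that is mutated in Lafora disease, had 2.86, 2.67, 2.62 and 2.18, a mean of 2.58 ± 0.29 or 5.99-fold (limma, adjusted p = 0.00124). Both were above 2 on every array. Pgm2l1, which makes glucose 1,6-bisphosphate, the cofactor of phosphoglucomutase, had 2.48, 2.39, 2.42 and 2.28, a mean of 2.39 ± 0.08 (limma, adjusted p = 0.000427). Stbd1, which binds glycogen and carries it to lysosomes, had 2.86, 1.94, 1.78 and 1.62, a mean of 2.05 ± 0.56 with array 1 the highest (limma, adjusted p = 0.00595).

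The remaining rises were smaller. The phosphatase targeting subunit Ppp1r3d averaged 0.97 ± 0.11, the phosphoglucomutase relative Pgm5 0.96 ± 0.21, and Gsk3b, a kinase that inhibits glycogen synthase, 0.95 ± 0.08. Calm3, which encodes calmodulin, the delta subunit of phosphorylase kinase, averaged 0.33 ± 0.07, and Gsk3a 0.24 ± 0.06. Among the falls, Phka2, the phosphorylase kinase alpha subunit of liver, averaged −0.89 ± 0.21 and was between −0.59 and −1.10 on every array. Pgm1 and Pgm2, phosphoglucomutases named by their RefSeq gene ID, averaged −0.51 ± 0.14 and −0.37 ± 0.05. The phosphatase subunits Ppp1r3g and Ppp1r3f averaged −0.62 ± 0.45 and −0.57 ± 0.06, although Ppp1r3g stood at 0.01 on array 1. The sugar phosphate mutase Pgm3 averaged −0.29 ± 0.18, and Gaa, the lysosomal enzyme that degrades glycogen, −0.28 ± 0.06. The limma adjusted p-values of these 12 genes ran from 0.00161 to 0.0352. The genes that did not pass were Phkg2, the catalytic subunit of liver phosphorylase kinase (0.21 ± 0.40), Calm2 (0.01 ± 0.06), the glycogen phosphatase laforin, Epm2a (−0.06 ± 0.27), and Ppp1r3c (−0.11 ± 1.53), which reached 2.11 on array 3, against values of −1.40 to −0.45 elsewhere.

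The count of falls in this list was 4 without array 2, 4 without array 4 and 4 with arrays 1 and 2, and 3 and 4, averaged. The calls of Gaa, Pgm3 and Gsk3a were lost without any 1 of the 4 arrays (highest adjusted p = 0.138, for Pgm3) and that of Ppp1r3g without array 2 or 4 (highest adjusted p = 0.108). Averaging the array pairs ended these 4 calls and that of Calm3 (adjusted p from 0.0525 to 0.0992), and Phkg2 passed without array 1 (adjusted p = 0.0455). Gys2, the liver glycogen synthase, had values on arrays 1 and 3 alone, at −1.88 and −0.70. Phkg1, the catalytic subunit of muscle phosphorylase kinase, had a value of −0.24 on array 4 alone, and Ppp1r3a and Ppp1r3e were each blank on array 3. These 4 were not tested with a value required on every array. With a value on 3 arrays sufficing, Ppp1r3a was lower (−1.05, limma adjusted p = 0.0442) and Ppp1r3e did not pass (limma adjusted p = 0.33). The Ppp1r3a call rests on feature 8769 alone, and its other features had mixed signs. Feature 11455 had −3.02 on array 1 and 1.75 on array 4, and feature 34208 had 1.36 on array 2 and −0.64 on array 4.

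**Figure D4:**
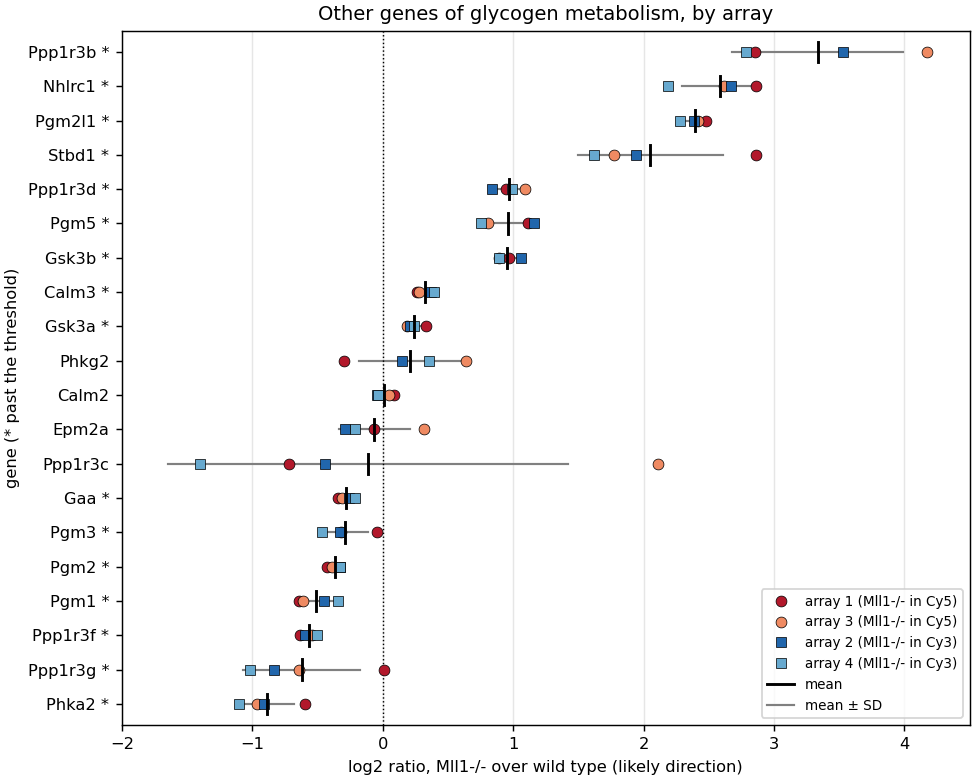
Log2 ratio on each array (x axis, likely Mll1-/- over wild type) for the 20 tested genes of glycogen metabolism outside the 9 (rows, sorted by mean), with asterisks for those past the limma threshold. Circles are arrays 1 and 3, squares arrays 2 and 4, black bars means and grey lines ± SD. Ppp1r3b, Nhlrc1, Pgm2l1 and Stbd1 lie above 1.6 on every array, and the falls stay above −1.2.

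Genes that take up glucose and add or remove its phosphate held rises as well as falls. Among the 17 with a test, 3 rose and 7 fell (limma, adjusted p under 0.05), with a median log2 ratio of −0.32, beside 29.1% and 30.1% over all genes. G6pc3, the glucose 6-phosphatase found in most tissues, rose 8.48-fold, with a log2 ratio of 3.08 ± 0.24 and array values of 3.43, 2.87, 3.05 and 2.98 (limma, adjusted p = 0.000663). Slc37a4, the transporter that brings glucose 6-phosphate to that enzyme and is named here after its value was seen, fell, with a log2 ratio of −1.53 ± 0.11 (limma, adjusted p = 0.000542). The transporter gene Slc2a10 rose (0.71 ± 0.16), while Hkdc1, a hexokinase-like enzyme, fell 5.99-fold (−2.58 ± 0.40) and Slc2a9, a urate and sugar transporter, 4.60-fold (−2.20 ± 0.12). All 4 arrays had one sign for each of these 5 genes, which was a condition for naming them, Slc37a4 apart.

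Of 10 tested genes of UDP-glucose and galactose metabolism 6 fell and 2 rose, with a median of −0.41, beside 30.1% lower and 29.1% higher over all genes. Galt, which transfers uridylate between glucose and galactose, averaged −0.89 ± 0.22, and Galm, the mutarotase of galactose, −0.84 ± 0.06. Ugcg, which uses UDP-glucose to make glucosylceramide, rose (0.92 ± 0.08). The other rise, Slc35a2 (0.17 ± 0.13), lost its call without the dye term, without any 1 array and with the array pairs averaged (adjusted p from 0.0998 to 0.174), which left 1 rise. Genes of hormonal and kinase control showed 8 rises and 7 falls among 23 tested, with a median of −0.06, beside 29.1% higher and 30.1% lower over all genes. The protein phosphatase 1 inhibitor genes Ppp1r1a (2.07 ± 0.20) and Ppp1r2 (1.43 ± 0.11) rose. The catalytic subunit of AMP-activated kinase Prkaa2 (−0.69 ± 0.10) and the regulatory subunit of protein kinase A Prkar1a (−0.46 ± 0.31) fell, with limma adjusted p-values of the 4 genes from 0.0013 to 0.00466.

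Markers of tissues in which the liver, muscle and brain phosphorylases are typical were set beside these values, and their part in the result was not tested. Over all genes 59.2% were past the threshold, 29.1% as higher and 30.1% as lower. Of 10 hepatocyte markers 3 were tested and none passed (limma, none at an unadjusted p under 0.05 either), with log2 ratios from −1.31 to −0.01, and 1 was lower without array 1, 1 without array 3, 1 without the dye term and 2 of 6 when a value on 3 arrays sufficed. Of 10 striated muscle markers 8 were tested, of which Acta1 (2.49 ± 0.15) and Tnnt3 (0.93 ± 0.60) rose and Myog (−0.79 ± 0.30) and Des (−0.31 ± 0.26) fell. The muscle rises numbered 1 without array 2 and 1 without array 4, and the falls 0 without array 3 and 1 without array 4. Of 10 macrophage and leukocyte markers 4 were tested, of which Lyz2 rose (2.27 ± 0.32) and Cd14 fell (−3.78 ± 0.12), with 2 rises without array 1, 3 or 4. Of 10 astrocyte and neuron markers 7 were tested, of which 3 rose, led by Map2 (6.53 ± 0.47) and Tubb3 (0.74 ± 0.04), and none fell (limma, 3 of 7 at an unadjusted p under 0.05), with 1 fall without array 3. Levels in either genotype cannot be read from ratios, and fewer cells of a type and less RNA per cell cannot be told apart.

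The position of the genes was compared through the nearest tested protein-coding genes, 2 on either side, in the RefSeq gene order, a comparison chosen after the ratios were known. The 9 genes lay on 9 chromosomes (12, 2, 19, X, 8, 11, 3, 7 and 16 in the order above). None of the neighbours of Pygl came near its ratio, with Sav1 at −0.69 ± 0.13, Nin at −0.16 ± 0.56, Trim9 at −0.48 ± 0.26 and Tmx1 at −0.15 ± 0.07. The neighbours of Ugp2 were nearer to 0 than Ugp2, at −0.47 ± 0.17 for Peli1, 0.03 ± 0.06 for Vps54, −0.41 ± 0.72 for Mdh1 and −0.82 ± 0.09 for Wdpcp. Pygl was at rank 2 from the top of the 14222 genes and Ugp2 at rank 457 from the bottom. Most genes at any position would thus lie nearer to 0, and an effect of position was not tested. Over all 36 neighbours the log2 ratio ran from −2.27 to 1.27, with 7 past the limma threshold as higher and 15 as lower, beside 29.1% and 30.1% of all genes.

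The genes outside the 9 with ratios nearest to those of Pygl were Ifi202b, Map2 and Fhl1, with predicted genes, clones and olfactory receptors skipped. They lay at Euclidean distances of 2.36, 2.95 and 3.37 over the log2 ratios of the 4 arrays. Pygl was at rank 2 from the top, so only genes with very high ratios could be nearest, and no likeness in kind is read from them. Their means were 9.09, 6.53 and 6.31, against 7.98 for Pygl.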

How the data were processed

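Both RNAs were hybridised together to two-colour Agilent arrays, per the labels' protocols, and the software named in the submitters' processing notes is Agilent Feature Extraction 10.1.1. The authors deposited 1 value per feature and array, which was read here as a log2 ratio between the channels. What a blank means, which way the ratio runs, its log base and any correction or normalization the sources used here do not say. The range pointed to base 2, as it reached 14.68. Arrays correlated at r = 0.72 to 0.85 across features although dyes were swapped, so all ratios run one way. The pairs of one dye orientation correlated most, at 0.834 for arrays 1 and 3 and 0.845 for arrays 2 and 4. Pairs across orientations stood at 0.72 to 0.78. The platform annotation gave 33653 features 1 symbol, 56 several and 11309 none, and 33517 were matched by gene ID to RefSeq (GRCm38.p6). Singly named features with a value on all arrays were averaged per gene, which gave 14222 genes.

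All genes were fitted with limma 3.58.1 in R 4.3.3 (lmFit, eBayes, a genotype and a dye term, 2 residual degrees of freedom), with Benjamini-Hochberg adjustment and a threshold of 0.05, and the fit was tested on simulated data. Errors are SDs over arrays of both dye orientations. The genes and lists were chosen with earlier results of these data known. The lists cover other glycogen genes, glucose uptake and phosphorylation, UDP-glucose and galactose, hormonal and kinase control, fibroblasts, hepatocytes, striated muscle, macrophages and leukocytes, and astrocytes and neurons. Named are the 9 genes, Kmt2a, all tested glycogen genes, up to 2 genes each way in the other lists (fibroblast markers by count), and the 3 genes nearest to Pygl. Genes of the other lists were picked for the largest absolute log2 ratio past the threshold and one sign on all arrays, Slc37a4 apart. The alternatives were no dye term, centred or scaled arrays, features one by one, values on at least 3 arrays, a robust variance prior, array pairs averaged, and each array left out.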

Additional observations from a re-analysis of the deposited data

How the results depend on the processing

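The log2 ratios of the 8 glycogen genes with a value on every array moved by less than 1 SD and kept their sign in all 80 recomputed values, over the alternatives to the processing of features, arrays and blanks and with each array left out. Much of this outcome was fixed in advance. Dropping the dye term or averaging the array pairs cannot change a mean in this balanced design. Taking features one by one could not move a gene with a single feature. Only Phka1 could move when values on 3 arrays sufficed. Centring the arrays moved every gene by the same small amount. Leaving out 1 array cannot move a mean by 1 SD in this design. Of these genes only Pygb had a mean small enough against its SD to change sign that way. Leaving out 1 array gave 7.84 to 8.12 for Pygl and −2.06 to −1.86 for Ugp2. Of the 8 glycogen genes fitted, 0 had a dye term past the threshold by limma, and 5 had one at an unadjusted p under 0.05. Counts of calls moved more. With arrays 1 and 2, and arrays 3 and 4, averaged, 2690 genes were higher, 4 other glycogen genes were lower and 1 UDP-glucose and galactose gene was higher, and without the dye term 1 UDP-glucose and galactose gene was higher. With 1 array left out, 2532 to 2860 of all genes were higher and 2879 to 3005 lower. Over the same settings 8 to 9 of the other glycogen genes were higher and 4 to 5 lower, 2 to 4 glucose uptake and phosphorylation genes were higher and 5 to 7 lower, 1 UDP-glucose and galactose gene was higher and 4 to 6 lower, and 6 to 8 control genes were higher and 5 to 7 lower. The fewer residual degrees of freedom of the fits with an array left out (1 against 2) bear on the counts. No block for the replicate number was fitted, since each ratio already compares both genotypes within an array. Signal over background is unknown, which limits what a ratio as wide as that of Pygl says about the level in wild-type cells.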
